A study of Mus musculus with 4 samples.

Results

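The Kcn genes encode the pore-forming and auxiliary subunits of the potassium channels, together with a few transcripts named after them. Every gene whose symbol starts with Kcn in the deposited table was taken, which gave 98 of the 24561 gene symbols on the array and 148 of its 55681 gene probes. All 98 symbols were also found in the RefSeq gene table of the mouse. By their symbols 40 encode voltage-gated pore-forming subunits, 17 auxiliary subunits, 8 channels opened by calcium or sodium, 15 inward rectifiers and 14 two-pore-domain channels, and 4 are antisense or overlapping transcripts. For 57 genes the array carries 1 probe and for 41 it carries 2 or more. Where a gene had several probes, the one of highest mean signal stands for it.

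The RNA came from 4 lines of L1210, a mouse lymphocytic leukemia cell line of DBA subline 212, grown in RPMI 1640 medium with fetal bovine serum. L1210-control had been infected with a control lentivirus, and L1210-Fbxw11a, L1210-Fbxw11c and L1210-Fbxw11d with lentivirus carrying the named transcript variant of Fbxw11. Fbxw11 is an F-box protein that binds substrates for an SCF ubiquitin ligase. All 4 lines were stable populations sorted for GFP, so they share the parental leukemia, the viral infection and the sort. Below they are called the control, Fbxw11a, Fbxw11c and Fbxw11d lines or, in values, by these names alone, in this order where 4 values follow each other. Trizol RNA of each line was labelled with Cy3 and hybridized to 1 Agilent SurePrint G3 mouse array. There was thus 1 array per line and no replicate, and the values below carry no test and no p-value. The control, Fbxw11a and Fbxw11c lines lay on slide 1 and Fbxw11d lay alone on slide 2, so that slide and variant cannot be told apart for that line.

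Potassium channels let potassium ions leave or enter a cell along their gradient and so set its membrane potential. In lymphocytes the voltage-gated channel of Kcna3 and the calcium-activated channel of Kcnn4 are the best known. By keeping the membrane potential negative they sustain the calcium entry through Orai and Stim proteins that follows antigen receptor engagement. Two-pore-domain channels carry background potassium currents, and inward rectifiers pass potassium more readily into the cell than out of it. Many of the other Kcn genes are best known from neurons, heart muscle and epithelia.

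Signals are given in units of the control array, all arrays having been scaled to a common 75th percentile, and a ratio is the log2 difference from the control line unless another pair is named. A probe counted as well above background where the scanner software marked it so. Where it was marked on only 1 array of a pair, the ratio is a bound against the dimmest reliable signal of the other array, written as "at least". A gene is called higher or lower at 2-fold or more, and the word "bound" marks the calls that rest on such a limit. The measurement error was taken from probes printed on 10 spots each. The spread of a ratio is the SD expected between single spots of like signal in the same band of rows, and it leaves out differences between cultures, sorts and RNA extractions.

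The arrays could be compared at most signals but not evenly over their surface. The 75th percentile of signal ran from 620.2 to 954.2 over the 4 arrays, no gene spot was saturated and 102 to 167 of 59305 gene spots per array had an outlier flag. Identical spots of probes with a median signal under 15 varied by an SD of 1.46 log2 in array rows 1 to 64 of the control line and by 0.424 in rows 321 to 384, whereas spots over 1000 varied by 0.0487 in rows 1 to 64. Of all probes compared, 14.8% were past 2-fold in Fbxw11a in rows 1 to 64 and 0.871% in rows 321 to 384. The shares in Fbxw11c were 12.8% and 0.75%. Fbxw11d had 15.5% in rows 1 to 64 and 8.22% in rows 257 to 320, where 514 probes were lower and 20 were higher. Negative control spots reached an unscaled mean signal of 419.9 in rows 1 to 128 of the control line and 40.7 in the other rows. Fbxw11 itself had 2 probes, whose folds over the control line lay between 1.02 and 1.24 in the 3 variant lines, so neither shows the overexpression that the labels name. The paper that described these lines reports high levels of the Fbxw11 variants by real-time RT-PCR and western blotting. Whether the 2 probes read the inserted sequence was not looked up, so they cannot decide whether it was overexpressed. Markers of several lineages were well above background on the control array. These were 6 of 10 B-lineage genes, with Blnk at 18270, 6 of 10 T-lineage genes, with Cd4 at 3020, and 7 of 9 myeloid genes, with Csf3r at 56410. The B-lineage genes Ms4a1, Cd79b, Ebf1 and Igll1 and the T-lineage genes Cd3d, Cd3g and Thy1 were not well above background on any array. Of the 8 fibroblast and stroma genes 4 were well above background on all arrays. A few markers moved with the variant lines. Cd28, of the T lineage, was called lower in all 3, with ratios of -1.17, -1.17 and -1.37, and Col1a2, of the stroma list, was called higher in all 3, with 1.45, 2.10 and 2.05. Csf1r, of the myeloid list, was called lower in Fbxw11d and not in the other lines, at -1.12. The summed signal of the T-lineage list lay between 5379 and 5687 over the 4 lines. That of the stroma list was 1238 in the control line and 2775 to 4127 in the variant lines. This rise came from Col1a2, the only gene of that list called, with signals of 888.3, 2419, 3819 and 3688. Pdgfra, of the same list, was not called and went down, with 209.6, 206.4, 143.4 and 128.9. The part of these differences in the results below was not tested.

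A smaller share of the potassium channel genes than of all genes was well above background, and those detected were mostly dim. By the brightest probe of each, 50 of the 98 genes (51.0%) were well above background on all 4 arrays, against 66.2% of all genes with a symbol. Another 12 were so on 1 to 3 arrays, and 36 (36.7%, against 22.6% of all genes) on none. The highest signals of those 36 genes lay between 3.66 and 15.7, and no other probe of any of them was well above background. Per line, 57, 60, 55 and 57 Kcn genes were detected in the control line, Fbxw11a, Fbxw11c and Fbxw11d. Of the 62 genes detected somewhere, 7 had a signal over 1000 in the control line, 17 lay between 100 and 1000 and 38 (61.3%) lay under 100, where 33.1% of all detected genes lay. Their median signal in the control line was 77.4 and that of all detected genes 431.1.

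**Figure D1:**
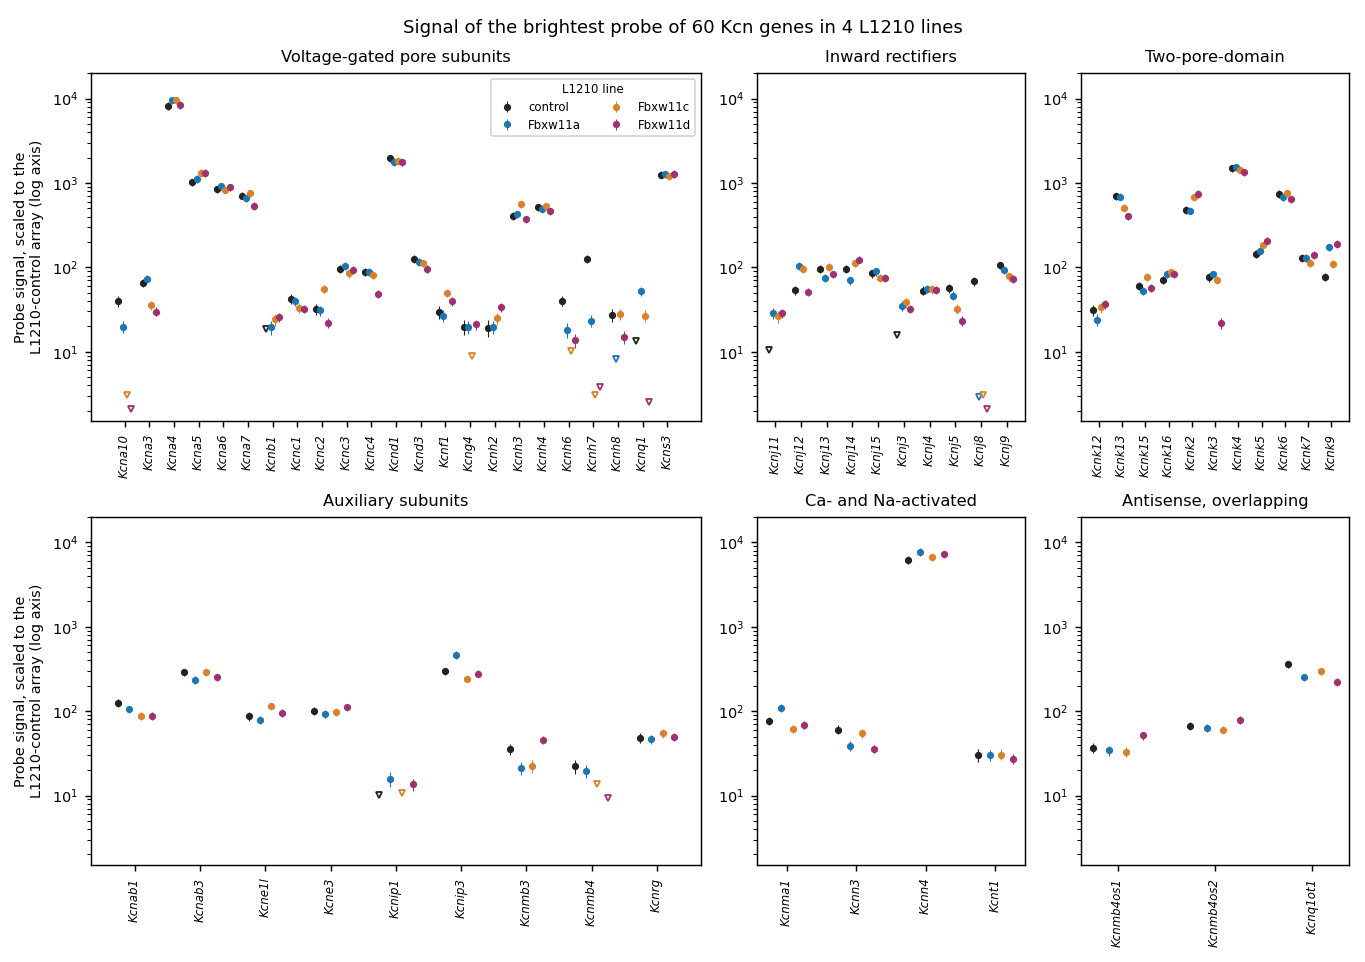
Signal of 60 of the 62 Kcn genes that were well above background on at least 1 array, on a log axis in units of the control array, by class of channel. Filled points are well above background, open triangles are not, and bars are the error given by the scanner software. The genes over 1000 have points that nearly coincide over the 4 lines, and the points spread apart below 100.

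The classes differed in how many of their members were detected. Of the 14 two-pore-domain genes 11 were detected on each of the 4 arrays and 3 were detected on none. Of the 40 voltage-gated genes 18 were detected on all arrays, 7 on some and 15 on none. The counts were 7, 2 and 8 for the 17 auxiliary genes, 7, 3 and 5 for the 15 inward rectifiers, and 4, 0 and 4 for the 8 calcium- and sodium-activated genes. Of the 4 antisense or overlapping transcripts 3 were detected on all arrays. Which class a gene belongs to was read from its symbol alone, and the difference between classes was not tested.

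None of the Kcn genes with a signal over 400 was called against the control line. Kcna4, a voltage-gated channel that inactivates quickly, had signals of 8254 in the control line, 9518 in Fbxw11a, 9592 in Fbxw11c and 8446 in Fbxw11d. Kcnn4 had 6204, 7720, 6684 and 7252 in the same order. Both were lowest in the control line. Kcnd1, the pore of a transient outward current, lay between 1766 and 1958 by the brightest of its 3 probes, and Kcns3, an electrically silent subunit that modifies other voltage-gated channels, between 1209 and 1283. In the control line 14 Kcn genes had signals over 400, and all their ratios to the control line lay between -0.79 and 0.64.

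Some of these small ratios were nonetheless several times the spread of identical spots. Kcna5, a delayed rectifier of heart and smooth muscle, had signals of 1014 in the control line, 1123 in Fbxw11a, 1327 in Fbxw11c and 1322 in Fbxw11d. It was thus above the control line in all 3 variant lines, with ratios of 0.15, 0.39 and 0.38, the last pair at 4.87 and 3.27 times the spot spread. This rests on 1 probe, in row 287, and a second Kcna5 probe in row 42 was well above background on no array. Kcnn4 had ratios of 0.32, 0.11 and 0.23, at 3.89, 1.35 and 1.93 times the spread. A ratio of 0.32 is a 1.24-fold difference, well inside the 2-fold limit used for the calls.

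Kcna3, the voltage-gated channel of lymphocytes, was dim in all lines. Its signals were 65.4 in the control line, 72.6 in Fbxw11a, 35.6 in Fbxw11c and 29.9 in Fbxw11d, well above background each time. The lines fell into a brighter pair, the control line and Fbxw11a, and a dimmer pair. The ratio was 0.15 in Fbxw11a, -0.88 in Fbxw11c and -1.13 in Fbxw11d, and only the last was called lower than the control line. Fbxw11a over Fbxw11c was 1.03 and over Fbxw11d 1.28, both called. These ratios to the control line were 0.207, 1.15 and 1.58 times the spot spread. Kcna3 lay in array row 240, outside the uneven top of the array, and the 256 probes of like signal around it had a median ratio of -0.25 in Fbxw11d, which leaves -0.88. Its probe lies at chr3:106840925-106840984 of mm9. Those of Kcna2 and Kcna10 start further along the same chromosome, at 106915982 and 106998421, and Kcna2 was well above background on no array.

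Kcna10, Kcnh6, Kcnh7 and Kcnj8 were lower in all 3 variant lines than in the control line. They were 4 of the 60 Kcn genes compared in all 3 pairs, against 1.34% of all genes, and no Kcn gene was higher in all 3 (0.214% of all genes). The 3 comparisons share the control array, so a raised value on it alone lowers all 3 ratios. Kcnh7, a neuronal ether-a-go-go-related channel, had signals of 125.4 in the control line and 23.2 in Fbxw11a and was not well above background in Fbxw11c or Fbxw11d. It was 5.40-fold lower in Fbxw11a and at least 8.43-fold and 12.1-fold lower in the others, with bounds of -3.08 and -3.59. Kcnh6, a close relative of Kcnh7, had signals of 40.2, 18.2, 10.2 and 13.7, of which the third was not well above background. Its ratios were -1.15 and -1.56 in Fbxw11a and Fbxw11d and a bound of -1.44 in Fbxw11c.

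Kcna10, a channel of the same family as Kcna3 with a cyclic nucleotide-binding region, had signals of 40.0 in the control line and 19.9 in Fbxw11a and was not well above background in the other lines. Its ratio was -1.01 in Fbxw11a and its bounds were -1.43 and -1.95. Kcnj8, the pore of a channel closed by ATP in vascular muscle, gave 68.3 in the control line, and its readings of 2.07 to 3.11 in the variant lines were not above background by the software's mark. It was lower by at least 4.75-fold, 4.59-fold and 6.56-fold. By its brightest probe Kcnj8 was the only Kcn gene detected on the control array alone with a bound past 2-fold against each other line. Abcc9, the sulfonylurea receptor that pairs with the Kcnj8 protein, had signals of 27.6, 23.8, 20.9 and 29.8 and was not called.

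All 4 of these genes were printed in array rows 5 to 90, where the control line was least even. Each rests on 1 spot per array. Their ratios were 1.01 to 4.68 times the spot spread, with Kcnh7 at 3.33, 2.84 and 4.68 times, Kcnj8 at 1.33, 1.72 and 2.65 and Kcna10 at 1.01, 1.12 and 1.90. On the control array the SD over the pixels of the spot was 49.1 for Kcnh7, 39.9 for Kcnj8, 44.7 for Kcna10 and 20.1 for Kcnh6. The unscaled pixel means were 173.1, 111.8, 82.4 and 76.5. Other Kcn spots there, with means of 172.0, 174.9, 111.3, 85.7 and 76.9, had SDs of 24.2, 38.2, 25.8, 22.7 and 18.6. The spot spread was not adjusted for uneven spots, and their part in the ratios was not tested. Around Kcnh7 the probes of like signal had median ratios of 0.02, -0.09 and -0.34, and around Kcnj8 of -0.09, -0.14 and -0.45. Around Kcna10 the 145 such probes had a median of -1.34 in Fbxw11d, with 66.9% of them 2-fold lower or more, and taking off that median left a bound of -0.61. A second probe of Kcnh7 in row 220 and a second probe of Kcnh6 in row 347 were well above background on no array, the control line included. With normexp background correction Kcnh7 alone of the 4 was lower in all 3 lines, and none was where both arrays of a pair had to be well above background. Whether the place on the array had a part in these 4 results was not tested. The first 30 bases of the probes of these 4 genes, 5′ to 3′ with mm9 coordinates, are given to show what each spot reads.
Kcnh7 (chr2:62541102-62541161, minus strand): aaacaagacagtgatgcgtcatcagagctt
Kcnh6 (chr11:105888126-105888185, plus strand): tggattgctggcctcgggagctaggcttta
Kcna10 (chr3:106998421-106998480, plus strand): cctcaacagcatgggctccagaatggggag
Kcnj8 (chr6:142513487-142513546, minus strand): cacgggtcatcatgaatatgttcaaatcta

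**Figure D2:**
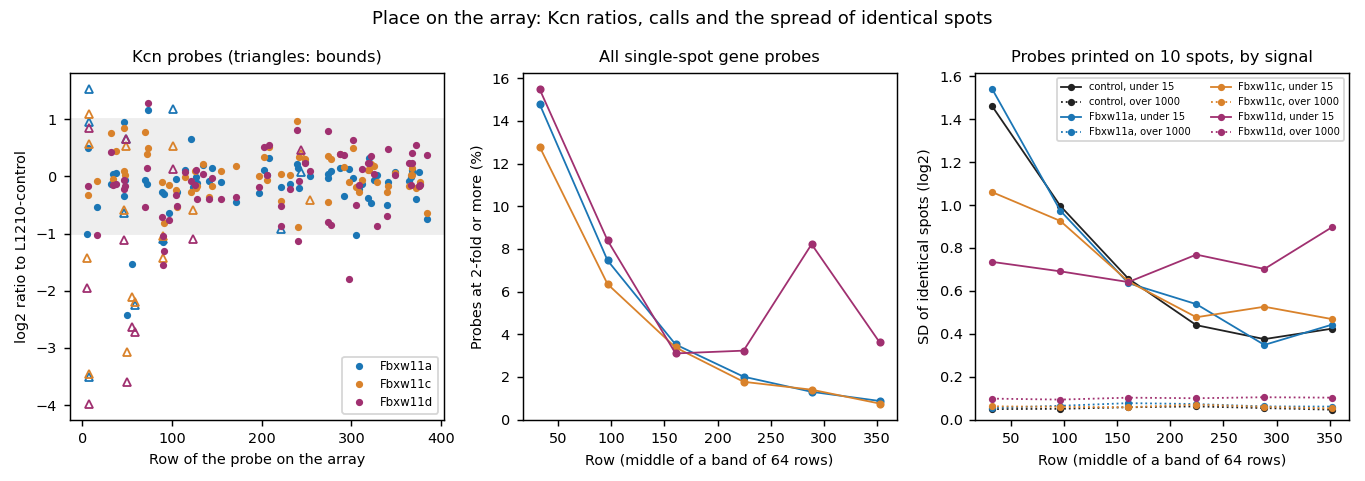
Panels against the row of the array: the log2 ratio of each Kcn probe to the control line (left; triangles are bounds, the grey band is within 2-fold), the percentage of all probes on 1 spot that were past 2-fold in bands of 64 rows (middle), and the SD of identical spots in log2 by signal (right; solid under 15, dotted over 1000). The share past 2-fold falls from 14.8% to 0.871% in Fbxw11a and from 12.8% to 0.75% in Fbxw11c, while Fbxw11d rises again to 8.22% in rows 257 to 320.

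In each variant line a few Kcn genes were called, and most of them lay at the top of the array. In Fbxw11a 2 of 62 compared genes were higher, against 2.43% of all genes, and 4 were lower, against 2.02%. In Fbxw11c 1 of 61 was higher, against 1.61%, and 4 were lower, against 2.27%. In Fbxw11d 1 of 61 was higher, against 1.05%, and 8 were lower, against 4.7%. The median ratio of the Kcn genes measured on both arrays was -0.07, 0.00 and -0.13, and that of all genes 0.00, 0.02 and 0.04. Over the Kcn genes as 1 group, and over all genes, calls were more frequent among the dim. Where the brighter signal of the pair was under 100, 11.8%, 12.1% and 20.0% of Kcn genes were called in the 3 lines, and 9.07%, 8.81% and 12.7% of all genes. At higher signals it was 7.14%, 3.57% and 7.69% of Kcn genes and 2.73%, 2.08% and 2.83% of all genes. Single classes had too few genes for this to be read, and among the two-pore-domain genes in Fbxw11a 0 of 4 dim and 1 of 7 brighter genes were called. In all, 11 of the 62 detected Kcn genes (17.7%) were called against the control line in at least 1 line, against 9.16% of all genes, 6 of them in 1 line and Kcnk9 in exactly 2, and none was called in opposite directions. Of these 11, 9 lay in array rows 1 to 128, as did 18 of the 51 detected Kcn genes that were never called. Leaving out rows 1 to 128 took away all 4 genes that were lower in every line and left Kcna3 and Kcnk3 called in Fbxw11d and, in Fbxw11a, a second probe of Kcnj13 in row 305 with a ratio of -1.03.

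**Figure D3:**
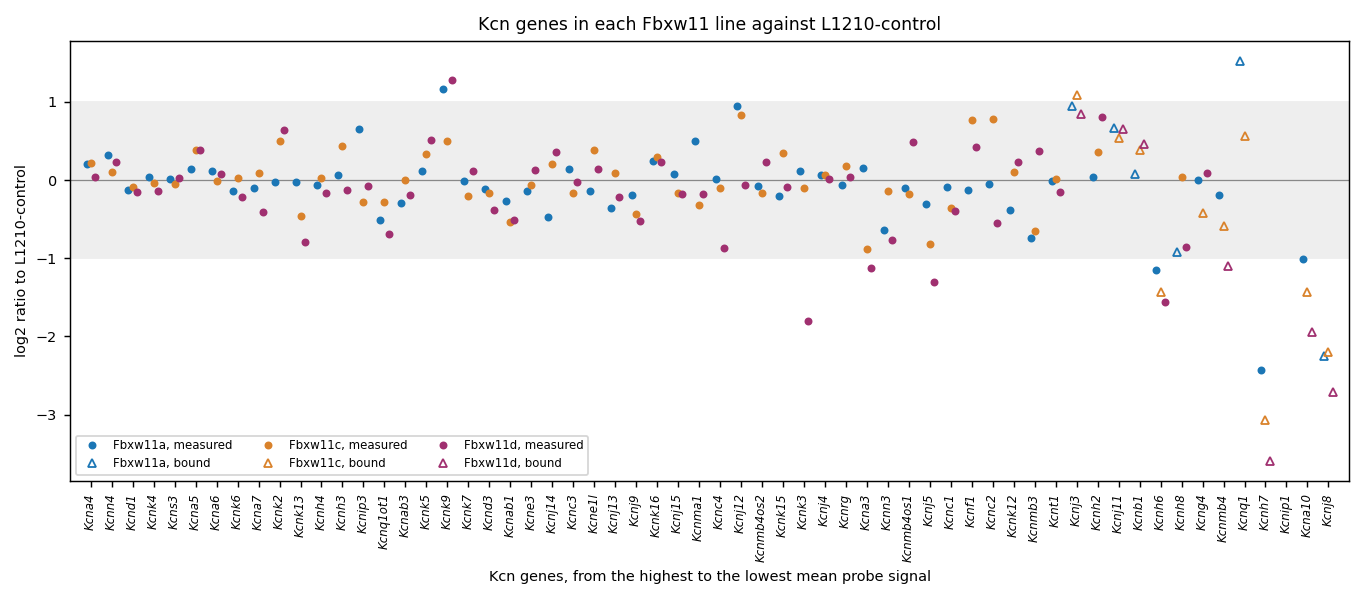
Ratio of 60 of the 62 Kcn genes to the control line (log2), ordered from the highest to the lowest signal and coloured by variant line, with filled points for measured ratios, open triangles for bounds and a grey band within 2-fold. Kcnip1 has no ratio to the control line because its signals lay under the dimmest reliable signal of the control array. Kcnh7 and Kcnj8 lie furthest to the lower side in all 3 lines, and Kcnk9 lies past 2-fold on the higher side in Fbxw11a and Fbxw11d.

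Among the other voltage-gated genes, Kcnq1, a channel of heart and epithelia, was seen in some lines only. Its signal was 52.1 in Fbxw11a and 26.9 in Fbxw11c, and it was not well above background in the control line or Fbxw11d. It was at least 2.88-fold higher in Fbxw11a than in the control line and at least 5.01-fold higher than in Fbxw11d. Its probe lay in row 8 and starts at base 150612887 of chromosome 7 in mm9. Around it the probes of like signal had a median of 0.08 in Fbxw11a over the control line, which leaves a bound of 1.45. In Fbxw11a over Fbxw11d their median was 1.35 and 64.3% of them were 2-fold higher or more, which leaves 0.98, no longer past 2-fold. A second Kcnq1 probe, in row 26, starts at base 150612896, so that it overlaps the first, and was well above background on no array. Kcnc2, a fast delayed rectifier of interneurons, had signals of 32.3 in the control line, 31.0 in Fbxw11a, 55.4 in Fbxw11c and 22.1 in Fbxw11d, and was called higher in Fbxw11c than in Fbxw11d with a ratio of 1.33. Its relative Kcnc4 had ratios of 0.02, -0.10 and -0.87 and was not called. Kcnh2, the cardiac ether-a-go-go-related channel, had signals of 19.3, 19.9, 24.8 and 33.7 and was not called, and its highest ratio of 0.80 was 1.02 times the spot spread. Kcna7, a channel known from muscle, had signals of 709, 664, 752 and 536 by its brightest probe and was not called. In Fbxw11d that probe had a ratio of -0.40 and a second probe, in row 367 and well above background on all arrays, had 0.23.

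Several genes were read by probes that disagreed. Kcna6, a voltage-gated channel of neurons, had 3 probes. The brightest, in row 115, gave 846, 915, 836 and 896 and ratios between -0.02 and 0.11. A second probe in row 8 gave 163.8 in the control line and was not well above background in any variant line, with bounds of -3.51, -3.46 and -3.98. Its spot on the control array had an SD over pixels of 92.5 at an unscaled mean of 190.9. Another Kcn spot there had 36.1 at 189.4. The third was well above background on no array. The first of these would leave Kcna6 among the even genes and the second would put it among those lower in all 3 lines. The first and last of the 3 probes start 28498 bases apart. The first 30 bases of each are printed to show that they read different stretches of the gene.
Kcna6, row 115 (chr6:126686702-126686761, minus strand): tgtcatggtccctctttgtgcctcagttcc
Kcna6, row 8 (chr6:126658424-126658483, minus strand): gagagttgctggtctgatcaaaggagagga
Kcna6, row 65 (chr6:126686922-126686981, minus strand): tcttctcagttctcatgggtacagctctga

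Kcnf1, a silent voltage-gated subunit, had a second probe in row 47 with a bound of -1.11 in Fbxw11d where the brightest had 0.43. Of the 50 probes other than the brightest, 12 were well above background on all arrays, 7 on some and 31 on none.

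**Figure D4:**
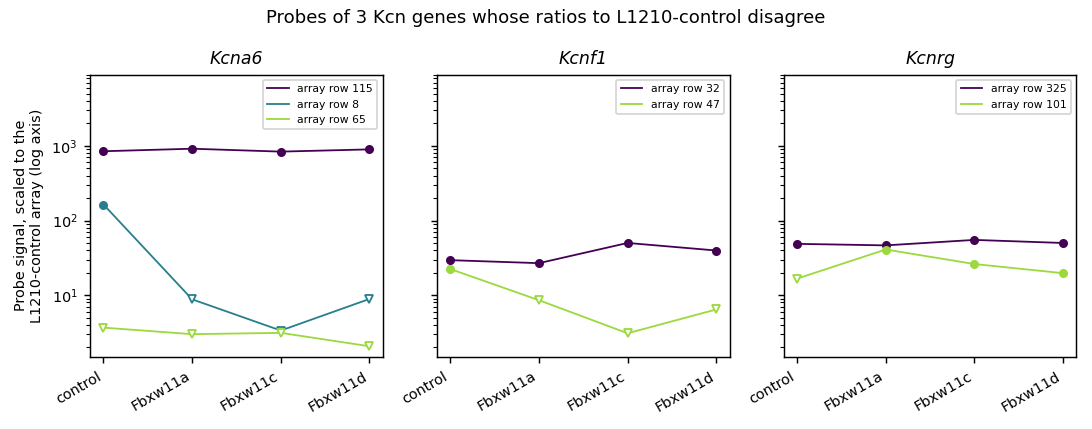
Signals of the separate probes of Kcna6, Kcnf1 and Kcnrg over the 4 lines, on a log axis in units of the control array, 1 line per probe named by its array row, with filled points well above background and open triangles not. In Kcna6 the probe in row 8 is well above background in the control line alone, and the brightest probe is level.

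Among the calcium- and sodium-activated channels Kcnn4 was the only one over 1000, with its values given above. Its probe matches 60 bases that span chr7:25169184-25169782 of mm9, a stretch longer than the probe, so the match is split on the genome. Kcnn3, a small-conductance calcium-activated channel of neurons, had signals of 60.6, 39.0, 54.8 and 35.7 and ratios of -0.64, -0.15 and -0.76, each under 1 times the spot spread. A second Kcnn3 probe, in row 90, gave 30.6 in the control line and was past 2-fold lower in all 3 lines, with bounds of -1.09 and -1.04 in Fbxw11a and Fbxw11c and a measured ratio of -1.04 in Fbxw11d. Kcnma1, the large-conductance calcium-activated channel, had 77.1, 108.6, 61.8 and 68.4 by its brightest probe and was not called. A second in row 104 lay between 18.3 and 22.9, and the other two were well above background on no array. Kcnt1, a sodium-activated channel, lay between 27.3 and 30.6 by its brightest probe, in row 366. Its second probe, in row 277 and also well above background on all arrays, gave 21.8, 23.1, 26.7 and 12.1, with a ratio of -0.85 in Fbxw11d, and was past 2-fold higher in Fbxw11c than in Fbxw11d at 1.14. The genes that serve calcium entry with Kcnn4 and Kcna3 were all detected in every line, and none of Orai1, Orai2, Orai3, Stim1 and Stim2 was called. Orai2 in Fbxw11d came closest, with a ratio of -0.97.

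The inward rectifiers were dim, with 9 of the 10 detected genes under 100 in the control line. Kcnj5, a G protein-gated channel of heart muscle, had signals of 57.3 in the control line, 46.3 in Fbxw11a, 32.4 in Fbxw11c and 23.2 in Fbxw11d. It was called lower in Fbxw11d with a ratio of -1.31. The probes of like signal around it had a median of -0.59 there, which leaves -0.72. Kcnj12, a strong rectifier of muscle, had 53.7, 103.5, 95.9 and 51.5 and was called higher in Fbxw11a than in Fbxw11d with a ratio of 1.01, while its 0.95 over the control line missed the limit. The probes of like signal around it had a median of 0.61 in Fbxw11a over Fbxw11d, with 38.8% of them 2-fold higher or more, which leaves 0.39 and ends that call. Kcnj3, another G protein-gated channel, was not well above background in the control line and had 35.0, 38.4 and 32.4 in the variant lines, with bounds of 0.95, 1.09 and 0.84, of which Fbxw11c was called. A second probe of Kcnj3, in row 265, was well above background on no array. The probes of Kcnj11, the ATP-closed channel of pancreatic beta cells, disagreed. The brightest, in row 49, was not well above background in the control line and lay between 26.3 and 28.6 in the variant lines, with bounds of 0.54 to 0.66. The other, in row 292, was well above background on all 4 arrays with 20.9, 16.4, 23.4 and 27.3 and ratios of -0.35, 0.16 and 0.38, so that Kcnj11 was detected in the control line by this probe and went the other way in Fbxw11a. Its partner Abcc8 had signals of 298, 329, 356 and 294 and was not called.

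The two-pore-domain channels were the class most often detected and held the only gene called higher in exactly 2 lines. Kcnk9, an acid-sensitive background channel, had signals of 77.8 in the control line, 173.9 in Fbxw11a, 109.9 in Fbxw11c and 189.5 in Fbxw11d. All 3 variant lines were above the control line, with ratios of 1.16, 0.50 and 1.29 at 1.98, 0.974 and 2.33 times the spot spread. Its probe lay in row 73, and the probes around it had medians of 0.08, 0.04 and 0.18. The first 30 bases of this probe are shown because they open with a repeated triplet.
Kcnk9 (chr15:72342761-72342820, minus strand): atgatgatgatgtcgtcgataatgttgttg

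Kcnk3, the closest relative of Kcnk9, was called in Fbxw11d and in no other line against the control line. Its signals were 76.03 in the control line, 82.7 in Fbxw11a, 70.6 in Fbxw11c and 21.9 in Fbxw11d. The ratio in Fbxw11d was -1.80, and that line was also called lower than Fbxw11a and Fbxw11c. Kcnk3 lay in row 297, within the band where Fbxw11d was low. Of the 273 probes of like signal around it 41.4% were 2-fold lower or more, with a median of -0.82, and taking off that median left -0.98, which is no longer past 2-fold. The part of the array's place in this value was not tested.

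Kcnk2 and Kcnk13 had ratios of opposite sign at higher signal. Kcnk2, a channel opened by stretch and lipids, had 480.1 in the control line, 471 in Fbxw11a, 679 in Fbxw11c and 746 in Fbxw11d. Kcnk13, a channel inhibited by halothane, had 700.2, 689.7, 511 and 405. In both genes the control line and Fbxw11a were close together and Fbxw11c and Fbxw11d stood apart from them. The ratios in the latter lines were 0.50 and 0.64 for Kcnk2, at 3.07 and 2.38 times the spot spread, and -0.46 and -0.79 for Kcnk13, at 2.79 and 2.95 times. Kcnk2 lay in row 302 and Kcnk13 in row 274. None of these ratios reached 2-fold. Kcnk4, a channel opened by stretch like Kcnk2, had 1488, 1533, 1445 and 1346 by its brightest probe and 19.9, 23.1, 38.8 and 35.02 by a second in row 239, with ratios of 0.21, 0.96 and 0.81 for the latter, and Kcnk6 had 744, 674, 755 and 639. Kcnk5, an alkaline-activated channel found in lymphocytes, had 145, 158, 184 and 208 and ratios of 0.12, 0.34 and 0.52, the largest at 1.77 times the spread.

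Of the auxiliary subunits 9 of 17 were detected. Kcnab2, the beta subunit known from lymphocytes, was well above background on no array, and its highest signal was 8.42. Kcnab1 had 126.6, 104.7, 87.5 and 88.5 and was not called. Kcnip3, a calcium-binding protein that pairs with the Kcnd channels and also acts on transcription, had 295.3 in the control line, 466 in Fbxw11a, 244 in Fbxw11c and 279 in Fbxw11d, with ratios of 0.66, -0.28 and -0.08. A second Kcnip3 probe, in row 16 and well above background on all arrays, gave 66.9, 46.2, 63.3 and 32.8 and had ratios of -0.53, -0.08 and -1.03, so that it went the other way in Fbxw11a and was past 2-fold lower in Fbxw11d. Kcnmb3, a beta subunit of the large-conductance channel, had 35.4, 21.2, 22.6 and 45.6 and was called lower in Fbxw11a and Fbxw11c than in Fbxw11d, with ratios of -1.10 and -1.01. Kcnmb4, another of these subunits, had 22.3 in the control line and a bound of -1.10 in Fbxw11d, of which -0.74 is left less the median of the probes around it, and a second probe in row 87 was well above background on no array. Of the transcripts named after channel genes, Kcnq1ot1, the long noncoding RNA antisense to Kcnq1, had 360.2, 254, 297 and 223, and Kcnmb4os1 had 36.9, 34.3, 32.7 and 51.6. Neither was called.

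Kcnip1, another calcium-binding subunit of the Kcnd channels, shows how far 1 dim spot can be trusted, since its probe was printed on 10 spots. On the control array these 10 spots ran from 3.71 through a median of 11.02 to 35.0, and the highest lay in row 2. Their SD was 1.20 on the log2 scale. The lowest and the highest spot of this 1 probe on 1 array thus lay further apart than 2-fold.

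Between the variant lines 1 to 6 Kcn genes were called per pair, and Kcna3, Kcnk3, Kcnq1 and Kcnmb3 were each called in 2 pairs. In Fbxw11a against Fbxw11c, Kcna3 alone of 61 compared genes was called, against 4.22% of all genes. In Fbxw11a against Fbxw11d 6 of 61 were called, against 6.02%, with Kcna3, Kcnh7, Kcnj12, Kcnk3 and Kcnq1 higher in Fbxw11a and Kcnmb3 lower. In Fbxw11c against Fbxw11d 4 of 58 were called, against 4.23%, with Kcnc2, Kcnk3 and Kcnq1 higher in Fbxw11c and Kcnmb3 lower. Kcnh7 and Kcnq1 rest on bounds in these pairs. Less the median of the probes around each, Kcna3 and Kcnk3 stayed past 2-fold in Fbxw11a over Fbxw11d and Kcnc2 in Fbxw11c over Fbxw11d, and the other calls of the 3 pairs did not. Kcnc2 then also came past 2-fold lower in Fbxw11a than in Fbxw11c, at -1.02. Over all 6 pairs 14 of the 62 detected Kcn genes (22.6%) were called at least once, against 12.6% of all genes. Among the 50 Kcn genes detected on all arrays the range over the 4 lines had a median of 0.504 log2, against 0.351 for all genes detected on all arrays. It was under 0.5 in 25 of the 50, against 69.2% of all these genes, and 1 or more in 7 (14.0%), against 8.39%.

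The gene ontology terms for potassium transport in the deposited table held many genes that are not channels. Potassium ion transport was given to 129 genes, of which 86 were Kcn genes and 43 were not. Of its 89 genes compared in all 3 pairs with the control line, 4 (4.49%) were called in each of the 3, in either direction, against 1.61% of all genes. These were Kcna10, Kcnh6, Kcnh7 and Kcnj8, and none of the 39 other genes was called in all 3. For potassium ion transmembrane transport it was 3 of 82 genes, again without any other gene, and for potassium ion import 1 of 4.

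Other potassium genes, by lists that do not use the Kcn symbols, had few calls in Fbxw11a and Fbxw11c and more in Fbxw11d. In Fbxw11d 2 of 13 compared partner genes, 2 of 9 pump genes and 1 of 6 cotransporters were lower, and none was higher. Of all genes 4.7% were lower there. Fbxw11a had 1 partner gene higher and Fbxw11c 1 pump gene higher. Not all the called genes are named below. Of 15 partner subunits and other potassium channels Dpp10, a subunit of the Kcnd channels, was called higher in Fbxw11a with signals of 192.8 in the control line and 418.7 there. Lrrc55, a gamma subunit of the large-conductance channel, was called lower in Fbxw11d with a bound of -1.27. Hcn2, a pacemaker channel, had 42640, 40290, 39690 and 31530 and was not called. Of 10 sodium-potassium and hydrogen-potassium pump genes, Atp12a had 51.9 in the control line, 71.1 in Fbxw11a, 182.0 in Fbxw11c and 13.8 in Fbxw11d. It was called higher in Fbxw11c and lower in Fbxw11d. Of 7 cotransporters Slc12a5 alone was called, lower in Fbxw11d with a ratio of -1.10. Of 9 neuronal marker genes 4 were well above background on all arrays, among them Snap25 at 3462 in the control line and 3024 to 3305 in the variant lines. Of the other 5, Rbfox3, with 30.03 in the control line, was called lower in Fbxw11d with a bound of -1.53. Eno2 had 738.1 in the control line and ratios of -0.52, -0.70 and -0.60, none of them past 2-fold.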

How the data were processed

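Total RNA of 4 lines was measured on 4 one-colour Agilent arrays. Per the file headers the intensity values (processed signals, already background-subtracted by the scanner software) were made by the authors with Agilent Feature Extraction 10.7.1.1, while the submitters' processing notes name version 9.1. The authors also deposited a table of normalized log2 values whose normalization method is not given in the sources used here. Sorted, its values lay within 0.2 log2 of those of the control line at every rank for all 3 other arrays. The same table holds their detection flag and the gene symbols, and both its values and its flag served as an alternative.

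Spots with an outlier flag were left out, spots of a probe were averaged, and log2 signals were centred on the 75th percentile of their array. A probe was well above background where at least 0.5 of its spots were. Bounds used, per array, the dimmest probe whose spots were all well above background (10.4 to 18.1 on the scale of the control line). Genes were called at 2-fold. The depth of an array is limited by its signal over background, and the number of arrays limits the precision.

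Named are the 10 brightest Kcn genes, those called in the same direction in all 3 variant lines, the 5 highest and 5 lowest ratios per line among genes detected on both arrays, genes detected on 1 array alone with a bound past 2-fold against all others, Kcna3, Kcnn4, Kcnk5, Kcnk6 and Kcnab2, and genes whose probes disagreed. Other genes called in a comparison, and Kcnip1, Kcnj11, Kcnt1, Kcnq1ot1 and the non-Kcn genes, were named after their values were seen. The values of some genes, 2 of the detected Kcn genes among them, are not reported here, though they stay in all counts. The members and lists were chosen with earlier results of these data known. Neighbouring probes were those within 16 rows and columns whose brighter signal lay within 3-fold. The method was tested on simulated data. Coordinates are of mm9, as the array files give them, and printed sequences are the first 30 bases of the 60-base probes. Alternatives were other scalings and background corrections, filters, thresholds and probe choices. Python 3.11.15, numpy 2.4.6, pandas 2.3.3, R 4.3.3 and limma 3.58.1 were used.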

Additional observations from a re-analysis of the deposited data

Results flagged for a closer look

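Kcnrg, a putative regulator of potassium channels, was read by a probe other than the one that describes it, and this second probe lay at least 2-fold higher in Fbxw11a than in the control line, with a bound of 1.18 on the log2 scale. It drew attention because the probe was not used in any comparison and stood above the level of the control array. Its signals were 16.7 in the control line, where it was not well above background, 40.9 in Fbxw11a, 26.1 in Fbxw11c and 19.7 in Fbxw11d. The brightest probe of Kcnrg gave 48.7, 46.5, 55.02 and 50.02, with a ratio of -0.07 in Fbxw11a. The second probe was printed in row 101 and the brightest in row 325.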

How the results depend on the processing

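The detection counts stayed within 1.5 times under every alternative tried. The calls did not. In the order of Fbxw11a, Fbxw11c and Fbxw11d against the control line, 6, 5 and 9 Kcn genes were called, with 4 in all 3 lines. Between lines there were 1 for Fbxw11a against Fbxw11c, 6 for Fbxw11a against Fbxw11d and 4 for Fbxw11c against Fbxw11d. With normexp and an offset of 50, which damps low signals, the counts against the control line were 1, 1 and 4, with 1 in all 3 lines, Kcnh7, and between lines 0, 3 and 1. With no filter on dim probes they were 15, 11 and 22, with 8 in all 3, and 9, 18 and 13. Asking for both arrays to be well above background left 0 in Fbxw11c, 5 in Fbxw11d and 0 in all 3. At 1.5-fold they were 13, 12 and 18, and 10, 18 and 10. At 3-fold they were 2, 2 and 4, with 2 in all 3, and 0, 2 and 1. Fbxw11a against Fbxw11c gave 2 with quantile normalization, with the deposited normalized values and with the mean of all probes. These alternatives were chosen after seeing the data: array rows over 128 only gave 1, 0 and 2, with 0 in all 3, and 3 and 2 in the pairs with Fbxw11d; taking off the median of neighbouring probes gave 4 in Fbxw11d and 2 and 1 in those pairs. The cause of these shifts was not tested. Kcna10, Kcnh6, Kcnh7 and Kcnj8 were all kept under quantile normalization, median centring, the deposited values, no filter, flagged spots kept, the most detected probe and 1.5-fold. Asked only of Fbxw11a and Fbxw11c, which share the slide of the control line, a choice also made after seeing the data, 4 genes were lower in both. The mean of all probes kept Kcna10 and Kcnj8, 3-fold kept Kcnh7 and Kcnj8, and taking off neighbours kept Kcnh6, Kcnh7 and Kcnj8. Median centring moved the median of all genes by 0.22 log2 in Fbxw11d. Of 815 ratios of named genes under an alternative, 771 moved less than the spread of identical spots, 44 moved more and 0 changed sign after being called. No paired analysis was possible because each line had 1 array.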
